A study of Homo sapiens with 15 samples.

Results

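The 10 genes described here build, remodel and take up lipoproteins in HepG2, a human hepatocellular carcinoma cell line that secretes apolipoproteins in culture. They were chosen by name, as the rows of each library's gene table called APOA1, APOA2, APOB, APOC3, APOE, MTTP, CETP, SCARB1, LIPC and LCAT, out of 57773 genes listed. All 10 passed the filter on low counts, which left 12567 genes for testing. Cells were kept for 72 h with TCEP, tris(2-chloroethyl) phosphate, at 25 or 250 µM, or with TCIPP, tris(2-chloroisopropyl) phosphate, at 2.5 or 25 µM, and the controls had only the solvent dimethyl sulfoxide (DMSO, 0.1%). These chlorinated phosphate esters serve as flame retardants, and they differ by a methyl group that TCIPP carries on every chlorinated arm. There were 3 libraries of poly-A RNA in each of 5 groups, and the cultures of a triplicate were seeded, treated and extracted separately. The groups share the line, which is a single tumour-derived line grown without other liver cells, and a medium that contains fetal bovine serum, itself a source of lipoproteins.

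Liver cells secrete triglyceride-rich particles that are each built around a single molecule of apolipoprotein B, onto which the microsomal triglyceride transfer protein loads lipid in the endoplasmic reticulum. They also secrete apolipoproteins A-I and A-II, the main proteins of high density lipoprotein (HDL), which collects cholesterol from tissues. In plasma the particles are changed by lipases, by an enzyme that esterifies cholesterol and by a protein that exchanges cholesteryl ester between particle classes. Receptors on liver cells then take up whole particles or their cholesterol.

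No gene of the 10 passed an adjusted p of 0.05 in any of 7 comparisons with edgeR's quasi-likelihood test on exon reads, 70 tests in all. In 21 of these 70 tests the unadjusted p was under 0.05, and these belonged to 7 genes: SCARB1, MTTP, CETP, APOC3, LIPC, LCAT and APOB. Of all tested genes, 5.2% to 18.1% had an unadjusted p under 0.05 in these comparisons. The transcripts of the main HDL proteins, APOA1 and APOA2, and of APOE gave none. Where 2 treated groups were compared, same-numbered libraries deviated together from their group means, a pairing that the labels do not state. With the replicate number as a block, MTTP, SCARB1, CETP and LCAT passed in 1 or more of these comparisons. In these the block called 1.47% to 8.75% of all genes. With a library left out, the blocked fit still called MTTP between the compounds and SCARB1 for the TCIPP step in 6 of 6 fits, and LCAT in 1 of 6 and CETP for the TCIPP step in 0 of 6. Fold changes are given as log2 with the standard error (SE), p-values are adjusted by Benjamini-Hochberg over all tested genes, and levels are in CPM, the exon reads of a gene scaled to 1e6 exon reads of the library.

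Exon reads per library ran from 5.35 M to 26.8 M with a median of 8.89 M (M, 1e6 reads), so that 3 reads corresponded to 0.112 to 0.560 CPM. In all libraries the 9 hepatocyte markers looked up were present, with ALB at a median of 18222 CPM. The summed level of these 9 ranged from 40341 to 46857 CPM with DMSO and from 37468 to 43095 CPM over the treated libraries. Of markers of other cells that handle lipoproteins, SI, DCN and LUM had 0 reads in all 15 libraries, and PTPRC, CD163, CSF1R and MARCO had at most 2 reads in any. Other genes of these lists were present in every library: LYZ, CD74 and CD14 of the macrophage list at medians of 4572, 51.3 and 1.77 CPM, PDGFRB, ACTA2 and COL1A1 of the fibroblast and stellate list at 18.2, 21.0 and 1.69 CPM, and FABP2 of the enterocyte list at 1.81 CPM. On the endothelial list KDR and TEK had at most 1 read in any library, and VWF and CDH5 were at medians of 0.859 and 0.843 CPM. Intron reads made up 7.82% to 9.56% of gene reads and mitochondrial genes took 5.68% to 7.68% of exon reads. Intron reads averaged 8.90% with DMSO. At the lower concentrations they averaged 8.23% (TCEP) and 8.10% (TCIPP), and at the higher ones 8.50% and 9.0%. The part of this in the results below was not tested.

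Per exon length, the transcript levels of the 10 genes in DMSO spanned the range from APOA2 at 2282 ± 216 RPKM (SD, n = 3; RPKM scales the reads of a gene by its exon length and by the library's mapped reads) to CETP at 0.444 ± 0.182 RPKM. By mean RPKM, APOA2 ranked 15, APOB 32, APOA1 50 and APOE 111 among all genes. APOB stood at 787 ± 83.6, APOA1 at 497 ± 39.0 and APOE at 252 ± 23.4 RPKM. The order then went on with APOC3 at 34.7 ± 1.21, SCARB1 at 28.9 ± 3.03 and MTTP at 24.6 ± 2.54 RPKM. LCAT at 7.25 ± 0.230 and LIPC at 6.46 ± 0.626 RPKM came before CETP. The DMSO libraries of SCARB1 and MTTP overlapped, as did those of LCAT and LIPC, and the other neighbours in the order did not. Together the 10 genes took 1.71 ± 0.108% of exon reads with DMSO, of which APOB alone took 1.28 ± 0.138%. Under TCEP the share was 1.55 ± 0.0424% (25 µM) and 1.56 ± 0.0505% (250 µM). Under TCIPP it was 1.64 ± 0.131% (2.5 µM) and 1.78 ± 0.281% (25 µM).

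**Figure D1:**
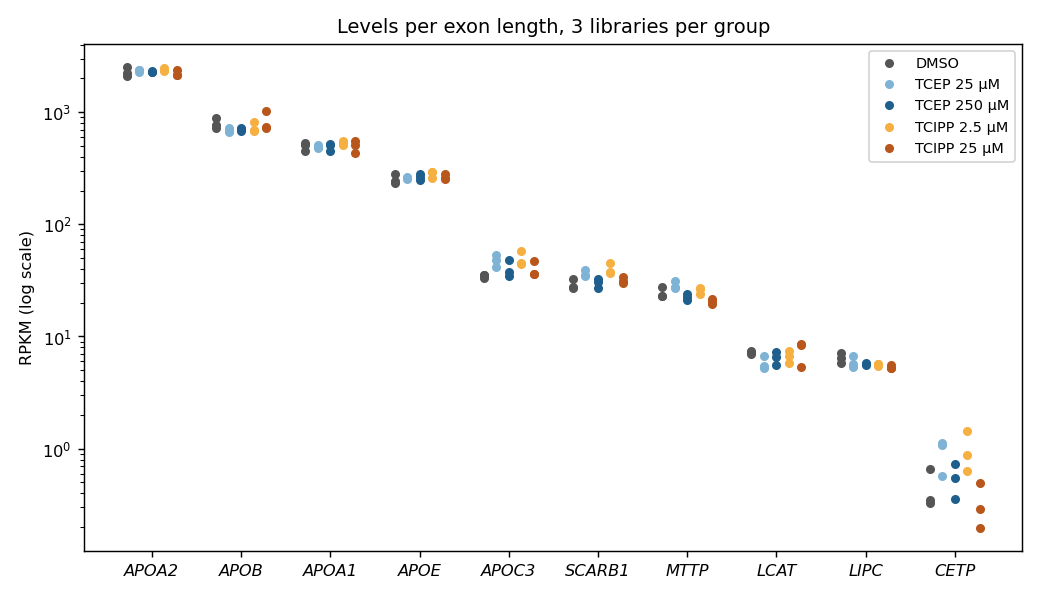
Levels of the 10 genes per exon length, in RPKM on a log axis, with 1 point for each of the 15 libraries, coloured by group. The 4 abundant apolipoproteins lie above 200 RPKM in every library, and CETP lies below all other genes in every group.

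APOB encodes apolipoprotein B, the structural protein of the triglyceride-rich and low density particles (ENSG00000084674, hg19 chromosome 2, 21224301 to 21266945, minus strand, 14828 exon bases). Its exon reads in replicates 1, 2 and 3 stood at 14342, 11654 and 12445 CPM with DMSO. With TCEP they were 10884, 10685 and 11639.6 CPM at 25 µM and 11748, 10901 and 11468 CPM at 250 µM. With TCIPP they were 10952, 11061 and 13387 CPM at 2.5 µM and 11751, 12007 and 16845 CPM at 25 µM. The 3 libraries at 25 µM TCEP lay just below the lowest DMSO library, and the other treated groups overlapped with DMSO. Against DMSO the log2 fold change was -0.21 ± 0.117 at 25 µM TCEP (adjusted p = 0.422), -0.19 ± 0.117 at 250 µM TCEP (0.987), -0.12 ± 0.117 at 2.5 µM TCIPP (0.738) and 0.07 ± 0.117 at 25 µM TCIPP (0.965). The highest level of all 15 libraries was that of TCIPP 25 µM replicate 3, and without it the last value was -0.10. In that library the 946 genes with at least 10000 exon bases had the highest median deviation of the 15 libraries from their mean over all libraries, 0.0685 on the log2 scale, and APOB deviated by 0.46. What long transcripts as a class contribute to the value of APOB was not tested.

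MTTP encodes the large subunit of the microsomal triglyceride transfer protein, without which apolipoprotein B is degraded before secretion (ENSG00000138823, hg19 chromosome 4, 100484918 to 100545156, plus strand). Its level was 137, 137 and 163 CPM with DMSO. It was 158, 183 and 163 CPM with TCEP at 25 µM and 125, 133 and 139.8 CPM at 250 µM. With TCIPP it was 139, 159 and 156 CPM at 2.5 µM and 116, 124 and 129 CPM at 25 µM. All 3 libraries at the higher concentration of a compound lay below all 3 at its lower concentration, for TCEP and for TCIPP, and at 25 µM TCIPP they also lay below all DMSO libraries. At the higher concentrations the fold change against DMSO was -0.15 ± 0.0860 with TCEP (adjusted p = 0.987) and -0.26 ± 0.0869 with TCIPP (0.578), and at the lower ones 0.21 ± 0.0852 (0.255) and 0.06 ± 0.0857 (0.835). Of its exon reads 65.3% were unique to 1 place, and TRMT10A, on the opposite strand, overlaps the gene with 1539 exon reads over all libraries against 25225 for MTTP.

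Between the concentrations of 1 compound, the log2 fold change of MTTP was -0.36 ± 0.0858 for TCEP at 250 against 25 µM (95% confidence interval -0.54 to -0.18, adjusted p = 0.488). It was -0.31 ± 0.0871 for TCIPP at 25 against 2.5 µM (-0.50 to -0.13, adjusted p = 0.232). At 25 µM of each compound MTTP was lower with TCIPP than with TCEP by a log2 of -0.46 ± 0.0867 (-0.65 to -0.28), to 0.724 times the level with TCEP, with an adjusted p of 0.0642. With the replicate number as a block these 3 comparisons gave adjusted p of 0.0122, 0.0164 and 0.000816. In the blocked fit the difference between the compounds passed in each of the 6 fits that left out 1 library. The concentration steps each passed in 1 of 6: TCEP without TCEP 25 µM replicate 3 (0.0105), TCIPP without TCIPP 2.5 µM replicate 1 (0.0401), and otherwise the adjusted p reached up to 0.108. MTTP's intron reads, scaled to 1e6 gene reads of the library, averaged 5.14 ± 0.710 with TCEP at 25 µM, 4.26 ± 0.817 at 250 µM and 4.45 ± 1.27 with TCIPP at 25 µM, with overlap between these groups.

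The promoters of MTTP and LIPC are shown because the level of each was lower in all 3 libraries at 25 µM TCIPP than in any DMSO library, and because, among the 5 members with an entry in the RefSeq table, these alone hold TGACCT. Each is the stretch before a RefSeq transcript start that lies inside the annotated gene but outside its annotated exons, located in GRCh37 by exact match and given 5′ to 3′ on the plus strand. MTTP is chr4:100495731-100495965, from 250 to 16 bases before the start, and LIPC is chr15:58723940-58724189, from 250 to 1 bases before it.
MTTP promoter: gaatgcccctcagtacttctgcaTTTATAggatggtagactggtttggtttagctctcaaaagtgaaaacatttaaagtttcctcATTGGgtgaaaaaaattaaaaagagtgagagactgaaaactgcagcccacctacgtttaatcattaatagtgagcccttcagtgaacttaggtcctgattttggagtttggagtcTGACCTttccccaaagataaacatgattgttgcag
LIPC promoter: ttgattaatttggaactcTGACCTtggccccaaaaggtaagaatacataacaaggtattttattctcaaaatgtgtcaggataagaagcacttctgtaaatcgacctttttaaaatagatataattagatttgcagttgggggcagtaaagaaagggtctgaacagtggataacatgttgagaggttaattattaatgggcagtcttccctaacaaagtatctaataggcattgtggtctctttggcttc
Capitals mark matches on either strand to 6 short motifs. The stretches of MTTP and LIPC hold TGACCT, the half-site bound by nuclear receptors such as HNF4A, at positions -50 to -45 from the start in MTTP and -232 to -227 in LIPC. The half-site is found in 12.1% of 35116 promoters of the same 250-base length in the RefSeq table (build GRCh38.p14). Of the 8 entries for the members 2 hold it. These 2 were shown partly for that, so its presence here was fixed by the choice. The other capitals in MTTP mark TATAAA and CCAAT, each on the minus strand, which occur in 10.7% and 32.0% of promoters. The remaining motifs searched were GGGCGG (42.6% of promoters), CAAAGTCCA (0.325%) and ACGTG (18.5%), with no match in these stretches. Of these, CAAAGTCCA was searched as the HNF4 motif, and it was found in 0 of the 8 entries for the members. The motifs were chosen after these sequences had been read, and a match describes letters only.

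HNF4A did not pass the test against DMSO. It was at 202 CPM with DMSO and had log2 fold changes of 0.06 to 0.14 in the 4 treated groups (adjusted p = 0.261 to 0.987). Its libraries lay above all DMSO libraries in each group except 25 µM TCEP. Of all genes, 11.2% did not overlap with DMSO at 250 µM TCEP, 9.2% at 25 µM TCIPP and 16.8% at 2.5 µM TCIPP. These comparisons share the DMSO libraries. HNF4A was named for the half-site TGACCT, which is not particular to it, and outside the rule for naming list genes.

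APOC3 encodes apolipoprotein C-III, which slows the lipolysis and uptake of triglyceride-rich particles (ENSG00000110245, hg19 chromosome 11, 116700422 to 116703788, plus strand). The DMSO libraries lay close together at 31.7, 33.6 and 33.7 CPM. TCEP libraries were at 45.6, 49.9 and 39.6 CPM at 25 µM and 36.0, 45.9 and 32.7 CPM at 250 µM. TCIPP libraries were at 42.0, 54.0 and 42.2 CPM at 2.5 µM and 34.2, 44.5 and 34.8 CPM at 25 µM. The treated libraries lay above all DMSO libraries in each group except 250 µM TCEP. Of all genes, 22.6% did not overlap with DMSO at 25 µM TCEP, 16.8% at 2.5 µM TCIPP and 9.2% at 25 µM TCIPP. These comparisons share the DMSO libraries. Both lower concentrations had the larger differences: 0.45 ± 0.138 at 25 µM TCEP (95% interval 0.16 to 0.74, adjusted p = 0.165) and 0.47 ± 0.139 at 2.5 µM TCIPP (0.18 to 0.77, adjusted p = 0.131). At the higher concentrations the values were 0.17 ± 0.141 (0.987) for TCEP and 0.18 ± 0.143 (0.924) for TCIPP. The higher against the lower concentration gave -0.27 ± 0.138 for TCEP and -0.30 ± 0.141 for TCIPP (adjusted p = 0.696 and 0.465). Replicate 2 was the highest library in each of the 4 treated groups.

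APOE encodes apolipoprotein E, the ligand through which remnant particles bind the receptors of the LDL receptor family (ENSG00000130203, hg19 chromosome 19, 45409011 to 45412650, plus strand). It ranged from 561 to 701 CPM over the 15 libraries, with 605 ± 56.5 CPM with DMSO and group means of 614 to 673 CPM with treatment. All treated groups overlapped with DMSO, and the fold changes against it ran from 0.03 to 0.16. The upper value, at 2.5 µM TCIPP, had a 95% interval of -0.00085 to 0.32 (adjusted p = 0.364).

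APOA1 encodes apolipoprotein A-I, which activates LCAT and takes up cholesterol from cells (ENSG00000118137, hg19 chromosome 11, 116706467 to 116708666, minus strand). It stood at 709.7, 823 and 799 CPM with DMSO and at 679.7 to 869 CPM over the treated libraries, which overlapped with DMSO in every group. Its fold changes against DMSO lay between -0.03 and 0.09, and over all 7 comparisons no 95% interval reached beyond -0.26 or 0.27. APOA2 encodes apolipoprotein A-II, the second protein of HDL (ENSG00000158874, hg19 chromosome 1, 161192082 to 161193421, minus strand). Its libraries spanned 2192 to 2618 CPM, and both ends of that range were DMSO libraries. The fold changes against DMSO lay between -0.04 and 0.07, and no interval over the 7 comparisons reached beyond -0.26 or 0.22. Of the exon reads, 77.0% were unique for APOA1 and 82.3% for APOA2, which AL590714.1 overlaps on the opposite strand with 7543 exon reads against 405513.

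LCAT encodes the plasma enzyme that esterifies cholesterol on HDL (ENSG00000213398, hg19 chromosome 16, 67973653 to 67978034, minus strand). DMSO libraries were at 20.2, 21.0 and 21.5 CPM. With TCEP the level was 19.1, 14.8 and 15.6 CPM at 25 µM and 20.9, 16.0 and 18.9 CPM at 250 µM. With TCIPP it was 19.1, 16.4 and 21.3 CPM at 2.5 µM and 24.2, 15.5 and 24.9 CPM at 25 µM. Replicate 2 was the lowest library in each of the 4 treated groups, and the 3 libraries at 25 µM TCEP lay below all DMSO libraries. The fold change there was -0.34 ± 0.146 (95% interval -0.65 to -0.03, adjusted p = 0.280), and in the other groups it lay between -0.18 and 0.06. At 25 µM of each compound LCAT was higher with TCIPP than with TCEP by 0.40 ± 0.150 (0.09 to 0.72), with an adjusted p of 0.173 and of 0.0416 with the replicate block, although the groups overlapped through TCIPP replicate 2. Of 6 blocked fits with a library left out, the 1 without that library passed (0.0173). Intron reads of LCAT, on the same scale, were 3.79, 3.75 and 3.66 with DMSO, above each of the 12 treated libraries. They were 1.83, 2.13 and 2.23 with TCEP at 25 µM, 1.98, 2.07 and 2.92 at 250 µM, 2.72, 2.86 and 3.41 with TCIPP at 2.5 µM and 3.49, 3.41 and 2.95 at 25 µM. These rest on 15 to 100 reads per library. How many of all genes have intron reads that separate DMSO from treatment in this way was not counted. SLC12A4 overlaps LCAT on the same strand, with 11754 exon reads over all libraries against 3346 for LCAT, so intron reads of these genes cannot be told apart. Whether exon reads of LCAT hold any of SLC12A4 was not tested.

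CETP encodes the cholesteryl ester transfer protein, which exchanges cholesteryl ester for triglyceride between HDL and apolipoprotein B particles (ENSG00000087237, hg19 chromosome 16, 56995762 to 57017757, plus strand). It had 4 to 39 exon reads per library, so that counting error is large. The level was 0.759, 1.50 and 0.793 CPM with DMSO. It was 2.56, 2.43 and 1.29 CPM with TCEP at 25 µM and 0.815, 1.66 and 1.24 CPM at 250 µM. With TCIPP it was 1.97, 3.25 and 1.46 CPM at 2.5 µM and 0.449, 1.12 and 0.675 CPM at 25 µM. The lower concentrations had the higher levels, with 1 library of each overlapping DMSO, and the 3 libraries at 25 µM TCIPP lay below all 3 at 2.5 µM and all 3 at 25 µM TCEP. Against DMSO the fold change was 1.08 ± 0.411 at 25 µM TCEP (95% interval 0.21 to 1.94, adjusted p = 0.222) and 1.08 ± 0.415 at 2.5 µM TCIPP (0.20 to 1.95, adjusted p = 0.250). TCIPP at 25 against 2.5 µM gave -1.54 ± 0.477 (-2.55 to -0.53, adjusted p = 0.252), and TCIPP against TCEP at 25 µM gave -1.54 ± 0.474 (-2.54 to -0.54, adjusted p = 0.122). With the replicate block these 2 comparisons gave adjusted p of 0.0302 and 0.0214. Without a library, the blocked fit called the first in 0 of 6 and the second in 4 of 6 fits (adjusted p up to 0.152 and 0.139).

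LIPC encodes hepatic lipase, which hydrolyses triglyceride and phospholipid of remnants and HDL at the liver surface (ENSG00000166035, hg19 chromosome 15, 58702768 to 58861151, plus strand). The DMSO libraries were at 30.6, 27.4 and 33.3 CPM. With TCEP the level was 31.3, 24.8 and 26.9 CPM at 25 µM and 27.2, 26.2 and 26.5 CPM at 250 µM. With TCIPP it was 25.6, 26.6 and 27.0 CPM at 2.5 µM and 26.2, 24.7 and 24.9 CPM at 25 µM. The treated libraries lay below all DMSO libraries in each group except 25 µM TCEP. Of all genes, 11.2% did not overlap with DMSO at 250 µM TCEP, 16.8% at 2.5 µM TCIPP and 9.2% at 25 µM TCIPP. The lowest DMSO library, at 27.4 CPM, was close to the highest library of these 3 groups, at 27.2 CPM. Fold changes against DMSO were all negative. They were -0.14 ± 0.0916 at 25 µM TCEP (adjusted p = 0.482), -0.22 ± 0.0929 at 250 µM TCEP (0.949), -0.21 ± 0.0926 at 2.5 µM TCIPP (0.319) and -0.28 ± 0.0956 at 25 µM TCIPP (0.575). These 4 values share the DMSO libraries. Between treated groups the LIPC fold changes lay between -0.14 and -0.07, with intervals that include 0. Its intron reads averaged 5.12 ± 0.842 on that scale with DMSO and 3.65 to 4.59 with treatment, and every treated group overlapped with DMSO.

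SCARB1 encodes scavenger receptor class B type I, which takes up cholesteryl ester from HDL without degrading the particle (ENSG00000073060, hg19 chromosome 12, 125261402 to 125367214, minus strand). Its level was 245, 293 and 247 CPM with DMSO. It was 307, 349 and 319.9 CPM with TCEP at 25 µM and 245, 290.1 and 274 CPM at 250 µM. With TCIPP it was 331, 402 and 338 CPM at 2.5 µM and 284, 304 and 274 CPM at 25 µM. Every library at the lower concentration of a compound lay above every DMSO library and above every library at its higher concentration. Replicate 2 was the highest library in all 5 groups. At 2.5 µM TCIPP the fold change against DMSO was 0.45 ± 0.0961, 1.37 times the DMSO level (95% interval 1.19 to 1.58), with an adjusted p of 0.0571, the smallest among the 70 tests. The call depended on the tool, since the adjusted p was 0.0386 with limma-voom and 0.00197 with DESeq2. With edgeR and a library left out, this comparison passed in 2 of 6 fits, without DMSO replicate 2 (0.0182) or TCIPP 2.5 µM replicate 1 (0.0366). In the other fits the adjusted p reached up to 0.347.

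At 25 µM TCEP the value for SCARB1 was 0.32 ± 0.0959 (0.12 to 0.52, adjusted p = 0.160), and at the higher concentrations it was 0.03 ± 0.0962 for TCEP (0.999) and 0.13 ± 0.0965 for TCIPP (0.908). The higher against the lower concentration gave -0.29 ± 0.0960 for TCEP (-0.50 to -0.09, adjusted p = 0.620) and -0.32 ± 0.0963 for TCIPP (-0.53 to -0.12, adjusted p = 0.245). At 25 µM the difference of TCIPP from TCEP was -0.19 ± 0.0962 (-0.39 to 0.01, adjusted p = 0.308). With the replicate block these 3 comparisons gave adjusted p of 0.0125, 0.00352 and 0.0405. The TCIPP step passed in each of 6 blocked fits with a library left out. The TCEP step passed in 1, without TCEP 250 µM replicate 3 (0.0180), and the difference at 25 µM in 1, without TCIPP 25 µM replicate 1 (0.0452). Intron reads of SCARB1 were 19.1 to 23.2 on that scale with DMSO and overlapped with every treated group.

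**Figure D2:**
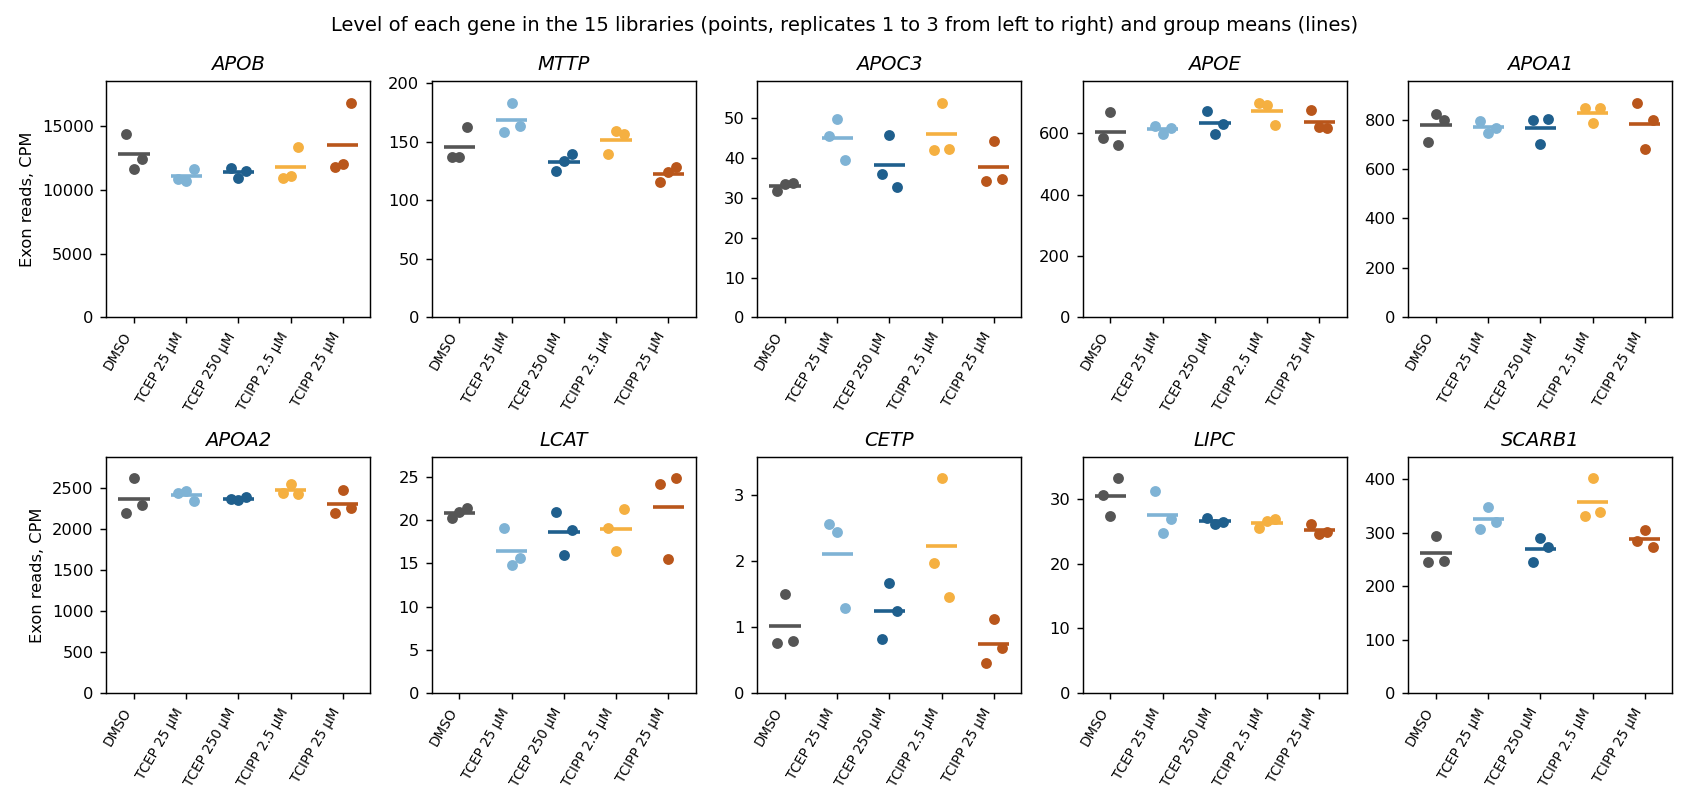
Exon reads (CPM, axis from 0) of the 10 genes in the 15 libraries, with 1 panel for each gene, points for replicates 1 to 3 of each group and a line at the group mean. SCARB1, APOC3 and CETP have their highest group means at the lower concentrations, MTTP its lowest at 25 µM TCIPP, and APOA1, APOA2 and APOE overlap between all groups and DMSO.

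Against DMSO, the counts of the 10 genes were read beside the share of all genes. The 10 were chosen with earlier results of these data known, so a count above that share is no test of the set. At 25 µM TCEP 0 of 10 passed (percent of all genes called: 0%). At an unadjusted p under 0.05, APOC3, SCARB1, CETP and MTTP were higher and LCAT lower, 5 of 10 beside 15.2% of all genes, and the groups did not overlap in 4, beside 22.6%. The median log2 fold change of the 10 was 0.03, beside 0.00045 over all genes. At 2.5 µM TCIPP 0 of 10 passed, beside 0.0955% of all genes. At an unadjusted p under 0.05, SCARB1, APOC3 and CETP were higher and LIPC lower, 4 of 10 beside 13.9%, and 3 did not overlap, beside 16.8%. The median was 0.08, beside -0.0040 over all genes.

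At 250 µM TCEP 0 of 10 passed (all genes 0%), and LIPC, lower, was the 1 gene of 10 with an unadjusted p under 0.05, beside 5.2% of all genes, and the 1 whose groups did not overlap, beside 11.2%. At 25 µM TCIPP 0 of 10 passed, beside 0.00796% of all genes. MTTP and LIPC, both lower, had an unadjusted p under 0.05, 2 of 10 beside 6.36%, and the groups did not overlap in these and in APOC3, which was higher, beside 9.2%. The medians were -0.02 and 0.03. The 4 comparisons share the DMSO libraries, so their values are not independent.

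**Figure D3:**
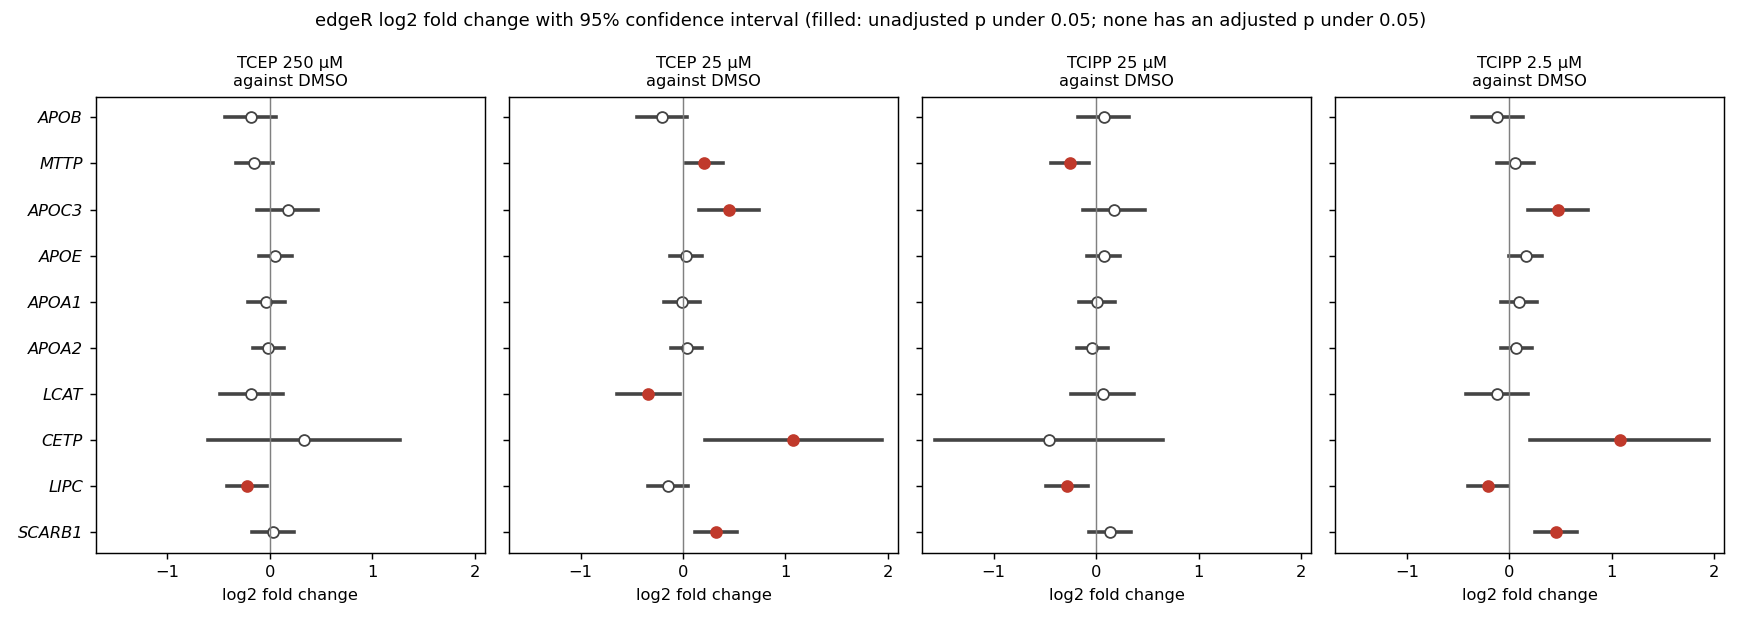
Log2 fold change of the 10 genes against DMSO with the 95% confidence interval, 1 panel for each treatment, filled points for an unadjusted p under 0.05. No interval of APOA1, APOA2, APOB or APOE excludes 0, and the widest interval is that of CETP.

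Between concentrations of 1 compound, SCARB1 and MTTP were lower at the higher concentration of TCEP and of TCIPP, and CETP at that of TCIPP. For TCEP 0 of 10 genes passed without the block (all genes 0%) and MTTP and SCARB1 passed with it, 2 of 10 beside 1.47% of all genes. These 2 also had an unadjusted p under 0.05 without it, beside 7.16%, and no overlap, beside 15.5%. For TCIPP 0 of 10 passed without the block (all genes 0%), and CETP, MTTP and SCARB1 passed with it, 3 of 10 beside 3.85%. The same 3 genes had an unadjusted p under 0.05 without it, beside 10.8%, and no overlap, beside 12.8%. Both steps are 10-fold, at different concentrations. The difference between the steps passed in 0 of 10 genes (all genes 0%), with an adjusted p of 0.9999 for each and, in this test, no unadjusted p under 0.05 (1.66% of all genes). The step of TCEP minus that of TCIPP was -0.05 for MTTP (95% interval -0.30 to 0.21), 0.03 for SCARB1 (-0.26 to 0.32) and 0.79 for CETP (-0.55 to 2.14). Differences between the steps within these intervals are compatible with the data, as is no difference.

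The compounds share 1 concentration, 25 µM, at which the methyl-branched TCIPP was compared with TCEP. Without the block 0 of 10 genes passed, beside 0.0398% of all genes. With it MTTP, CETP and SCARB1 were lower and LCAT higher with TCIPP, 4 of 10 beside 8.75%. At an unadjusted p under 0.05 without the block, MTTP and CETP were lower and LCAT and APOB higher, 4 of 10 beside 18.1%. The groups did not overlap for MTTP, CETP and SCARB1, which were lower, and APOB, which was higher, beside 20.1%. APOB differed by 0.28 ± 0.117 (95% interval 0.03 to 0.52, adjusted p = 0.221, and 0.0857 with the block), and by 0.10 without TCIPP 25 µM replicate 3. For APOA1 the difference was 0.01 (-0.16 to 0.19), for APOA2 -0.07 (-0.23 to 0.08) and for APOE 0.04 (-0.12 to 0.21), with larger differences outside the 95% interval. APOC3 differed by -0.27 (-0.57 to 0.02) and LIPC by -0.14 (-0.34 to 0.06).

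**Figure D4:**
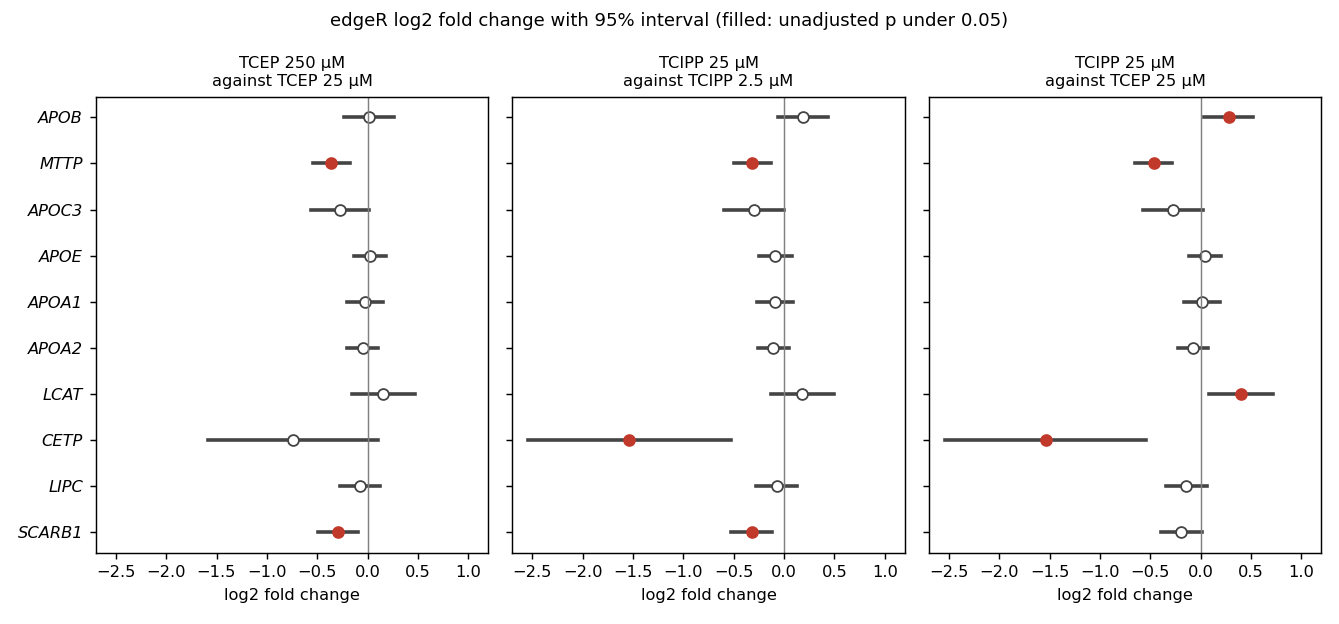
Log2 fold change of the 10 genes between treated groups with the 95% confidence interval from the fit without the replicate block, filled points for an unadjusted p under 0.05. MTTP lies below 0 in all 3 comparisons, with intervals that exclude 0, and SCARB1 lies below 0 in all 3 with an interval that includes 0 for TCIPP against TCEP.

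The lists of other lipoprotein genes, taken from textbook knowledge, held 128 genes in 5 groups, of which 108 were tested, and 0 of these passed in any of the 7 comparisons. Among 16 other apolipoproteins tested, of 23 listed, the medians ran from 0.01 to 0.12 on the log2 scale against DMSO, the highest at 25 µM TCEP. At 2.5 µM TCIPP 6 of these were higher and 1 lower at an unadjusted p under 0.05, beside 13.9% of all genes. At 25 µM TCEP 4 were higher (15.2% of all genes), at 250 µM TCEP 2 (5.2%) and at 25 µM TCIPP 1 (6.36%), with 0 lower. Of the 21 receptor and uptake genes tested, 6 were also higher and 1 lower at 2.5 µM TCIPP, and 5 higher and 1 lower at 25 µM TCIPP. APOL1 is a lytic factor against trypanosomes carried on HDL. At 2.5 µM TCIPP it stood at 169, 208 and 178 CPM, and with DMSO at 127, 129 and 125 CPM (0.55 ± 0.114, adjusted p = 0.0571). APOM, which carries sphingosine 1-phosphate on HDL, had 0.36 ± 0.0978 in the same comparison (adjusted p = 0.113). APOL6 had 0.40 ± 0.104 at 25 µM TCIPP (0.348).

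Genes of the assembly and secretion of apolipoprotein B particles were all tested, 26 of 26, with medians of -0.04 to -0.0025 against DMSO. SOAT2, the acyltransferase that makes cholesteryl ester for particle cores in liver cells, was at 36.1, 45.9 and 41.6 CPM at 2.5 µM TCIPP and at 30.9, 29.9 and 26.8 CPM with DMSO (0.51 ± 0.108, adjusted p = 0.0571). SOAT1, its relative found in most tissues, was higher at 25 than at 2.5 µM TCIPP by 0.29 ± 0.0842 (0.245). DGAT1, which makes triglyceride, was at 16.9, 16.8 and 18.9 CPM at 25 µM TCEP and at 24.8, 26.3 and 22.3 CPM with DMSO (-0.46 ± 0.127, adjusted p = 0.136). The groups did not overlap for these 3 genes, each given in the comparison with its smallest p. Of all genes, 16.8% did not overlap at 2.5 µM TCIPP against DMSO, 12.8% in the TCIPP step and 22.6% at 25 µM TCEP against DMSO.

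In the list of particle remodelling and HDL formation, 16 of 23 genes were tested, with medians of 0.03 to 0.09 against DMSO. C19orf80, a regulator of lipoprotein lipase also named ANGPTL8, stood at 16.6, 18.3 and 17.3 CPM at 25 µM TCIPP and at 10.7, 10.8 and 11.3 CPM at 25 µM TCEP (0.65 ± 0.130, adjusted p = 0.0753, 57.4% unique reads). FURIN, a protease that cleaves lipases and their inhibitors, had 0.92 ± 0.230 in that comparison (0.0833) and PON2, an esterase of the paraoxonase family, -0.23 ± 0.0823 (0.166). Receptors and uptake genes were tested in 21 of 26, with medians of -0.09 to 0.07 against DMSO. SORL1, a sorting receptor of the LDL receptor family, was at 472, 682 and 577 CPM at 2.5 µM TCIPP and at 353, 381 and 341 CPM with DMSO (0.69 ± 0.141, adjusted p = 0.0553). PDZK1, the scaffold that holds the SCARB1 protein at the membrane of liver cells, was at 21.2, 25.2 and 24.9 CPM with TCIPP and 33.3, 40.7 and 30.1 CPM with TCEP at 25 µM (-0.55 ± 0.114, adjusted p = 0.0753). Of its exon reads 48.6% were unique. HSPG2, the heparan sulfate proteoglycan perlecan, had -0.43 ± 0.0965 for the TCIPP step (0.191).

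Of 30 transcription factors of apolipoprotein genes, 29 were tested, with medians of -0.07 to 0.06 against DMSO. CREB3L3, which activates genes of triglyceride metabolism, was at 11.3, 10.5 and 11.3 CPM at 25 µM TCEP and at 16.2, 17.1 and 16.1 CPM with DMSO (-0.57 ± 0.113, adjusted p = 0.116). NR1H4, the bile acid receptor, was at 59.7, 45.2 and 59.3 CPM at 25 µM TCIPP and at 38.4, 24.5 and 33.8 CPM at 2.5 µM (0.76 ± 0.168, adjusted p = 0.191). PPARG, a fatty acid receptor, had -0.37 ± 0.0829 in the same step (0.191). The groups did not overlap for these 3 genes, each given in the comparison with its smallest p. Of all genes, 22.6% did not overlap at 25 µM TCEP against DMSO and 12.8% in the TCIPP step.

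**Figure D5:**
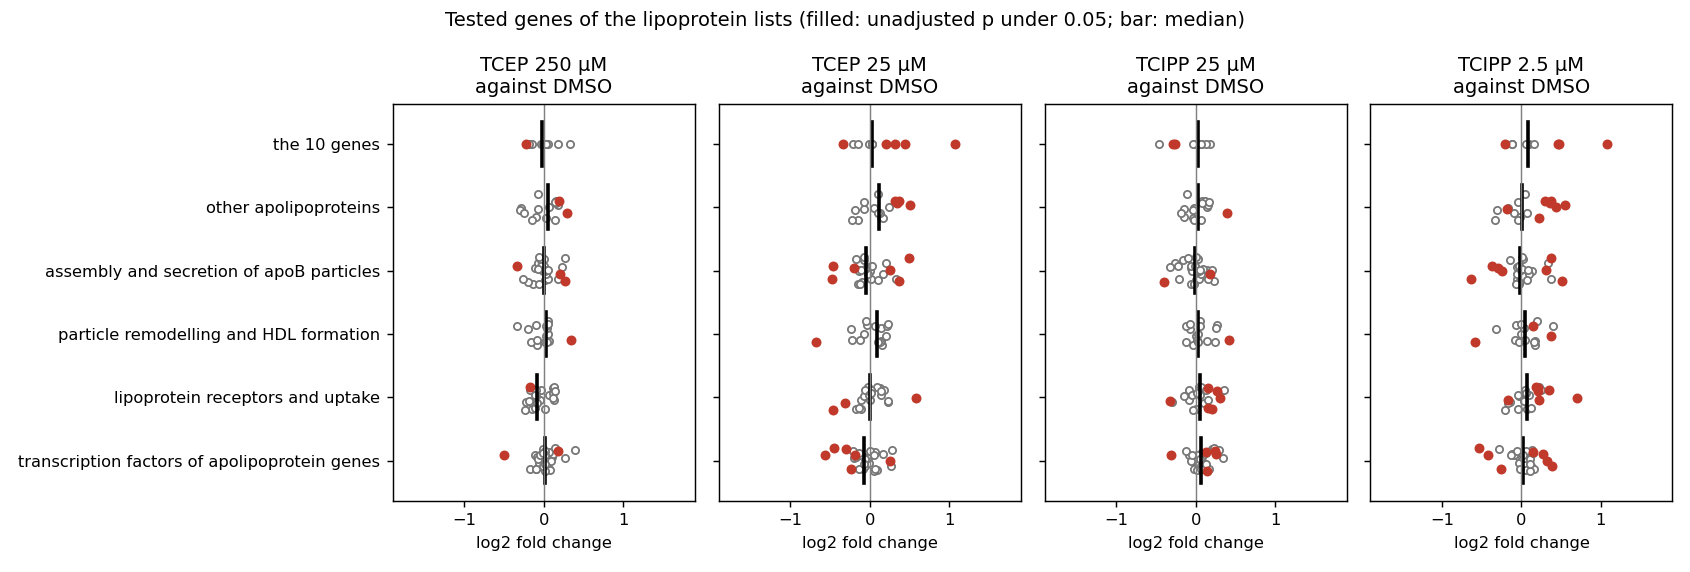
Log2 fold change against DMSO of the tested genes of the 5 lists and of the 10 genes, 1 panel for each treatment, with a bar at each median and filled points for an unadjusted p under 0.05. All medians lie within 0.12 of 0, and higher and lower genes stand side by side in most lists.

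By position, APOA1 and APOC3 lie in 1 cluster with APOA4 and APOA5 on chromosome 11, and APOE in another with APOC1, APOC4 and APOC2 on chromosome 19, and these neighbours were chosen for their place. With DMSO APOA1 stood at 497, APOC3 at 34.7, APOA5 at 12.5 and APOA4 at 1.59 RPKM. The values of the neighbours differed: at 2.5 µM TCIPP the fold change was 0.47 for APOC3, 0.09 for APOA1 and -0.02 for APOA5 (adjusted p = 0.131, 0.688 and 0.959). Beside APOE, APOC1 had 0.32 ± 0.0882 at 25 µM TCEP and 0.29 ± 0.0885 at 2.5 µM TCIPP (adjusted p = 0.138 and 0.140), where APOE had 0.03 and 0.16. APOC2 and APOC4 overlap each other, and with 1.68% and 0% unique reads their counts are uncertain.

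Among the 45 pairs of the 10 genes, the Pearson correlation of log2 CPM over the 15 libraries was highest for APOC3 and SCARB1, at 0.84, then for APOA2 and CETP at 0.81 and APOC3 and CETP at 0.81. It was lowest for APOC3 and LCAT at -0.69. APOA1 and APOA2 had 0.03. Libraries of 1 group share their treatment, and same-numbered treated libraries deviate together, so the 15 points are not independent. Among 8814 genes with a mean of at least 10 CPM, SCARB1 was most like TNS1 at 0.98, CKB at 0.98 and BSG at 0.97. APOC3 was most like APOL2 and APOL1, both at 0.96, and NSMCE1 at 0.96. MTTP was most like PDZK1 at 0.92, MAN2A1 at 0.91 and EDN1 at 0.89, and CETP most like SLC13A3 at 0.96, KRT19 at 0.95 and MVP at 0.94. For APOA1 the first was AMBP at 0.94, for APOA2 CGREF1 at 0.92, for APOB ASH1L at 0.88, for APOE SEMA3B at 0.85, for LIPC DHX9 at 0.84 and for LCAT EXT2 at 0.89.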

How the data were processed

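CLC Genomics Workbench (version not given in the sources) was the authors' tool for mapping and counting, per the series' design text, with hg19 named as the build in the submitters' processing notes. The deposited tables hold whole-number counts of exon, intron and gene reads and RPKM, per the file headers. Recomputing the deposited RPKM from exon reads, exon length and total gene reads gave the same value in 100% of genes (tolerance 0.0001). The quantile-normalized signal that the authors deposited was not used. No source used here says whether strand entered the counting, so overlapping genes on opposite strands cannot be told apart. Of the genes, 20986 have an exon length of 0 and 0 exon reads, and 27 names turned into dates were restored.

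The main test was edgeR 4.0.16 (R 4.3.3), glmQLFit and glmQLFTest on total exon reads, with TMM scaling, filterByExpr and all 15 libraries in 1 fit. P-values were adjusted by Benjamini-Hochberg over 12567 genes within each comparison, with a threshold of 0.05. The SE is the absolute log2 fold change over the square root of F. Alternatives used DESeq2 1.42.0, limma-voom (limma 3.58.1), other scalings, reads or filters, the replicate block and left-out libraries. The scripts were tested on simulated data.

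The cultures were separate but of 1 line, so p-values measure the spread between cultures. The labels do not say that a replicate number marks a shared day, so any pairing was inferred from these data alone. Over genes, the deviations of same-numbered libraries from their group means were correlated. They correlated at 0.177 to 0.297 between treated groups (3 comparisons), each over 0.1, so the number was taken to pair those libraries. Against DMSO they correlated at 0.0164 to 0.158, and the number was not taken to pair them. At 2.5 µM TCIPP the values were 0.104, 0.0891 and 0.152 for replicates 1 to 3, with 2 of 3 over 0.1. Each TCIPP library there correlated best with the DMSO library of its number, so a pairing in this comparison is uncertain. The blocked fits held the DMSO libraries too, so their replicate numbers entered the block behind the values between treated groups. What this did to those values was not tested.

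The members and lists were chosen with earlier results of these data known. All 10 members were named. From each list any gene that passed and the 3 genes with the smallest p over the 7 comparisons were named, and for likeness the 3 genes, of mean 10 CPM or more, with the highest Pearson r (log2 CPM, prior count 2). Floors cover only counting error, since molecular identifiers were absent from these reads. RefSeq's promoter table held 8 entries for 5 members, APOA2, APOE, CETP, LIPC and MTTP.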

Additional observations from a re-analysis of the deposited data

How the results depend on the processing

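The number of genes called depended on the processing more than the fold changes of the 10 genes did. In the order TCEP 250 µM, TCEP 25 µM, TCIPP 25 µM and TCIPP 2.5 µM against DMSO, the TCEP step, the TCIPP step, TCIPP against TCEP at 25 µM and the difference of steps, the main counts were 0, 0, 1, 12, 0, 0, 5 and 0. Without a filter on low counts they were 50, 618, 80, 553, 161, 345, 756 and 8. With the replicate block they were 34, 1037, 47, 941, 185, 484 and 1100, and DESeq2 gave 14, 144, 32, 228, 14, 72 and 330. Total gene reads gave 1 at 250 µM TCEP, 0 for TCIPP at 25 and at 2.5 µM, and 13 at 25 µM of each compound. Unique exon reads gave 2 at 25 µM TCEP and 122 at 2.5 µM TCIPP, and limma-voom 4 and 104. Library totals gave 0 and 35 for TCIPP at 25 and 2.5 µM and 2 at 25 µM of each compound. Fits of only the groups compared gave 135 at 25 µM TCEP, 0 and 23 for TCIPP at 25 and 2.5 µM, and 0 at 25 µM of each compound. Leaving out a library gave 0 to 1, 0 to 29, 0 to 5 and 0 to 307 against DMSO, 0 to 208 between the compounds and 0 for the steps and their difference. The cause of these differences was not tested.

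The sign of the fold change turned under 1 or more alternatives in 16 of the 70 comparisons of the 10 genes, none of which had a main value beyond 0.077 in size or passed the test. APOA1 at 25 µM TCEP was 0.022 with unique exon reads and 0.010 with gene reads, and with gene reads it was -0.0028 at 25 µM TCIPP and -0.013 for the compounds at 25 µM. APOA2 at 250 µM TCEP was 0.00016 with library totals and 0.023 with unique exon reads. With a library left out, APOA1 ran from -0.088 to 0.026 at 250 µM TCEP, -0.062 to 0.028 at 25 µM TCEP, -0.081 to 0.093 at 25 µM TCIPP, -0.062 to 0.033 for the TCEP step and -0.073 to 0.10 between the compounds. APOA2 ran from -0.060 to 0.056, -0.011 to 0.11 and -0.097 to 0.031 in the first 3 of these. APOB ran from -0.10 to 0.17 at 25 µM TCIPP and -0.0034 to 0.049 for the TCEP step. APOE ran from -0.024 to 0.098 at 25 µM TCEP, -0.018 to 0.063 for the TCEP step and -0.0037 to 0.079 between the compounds. SCARB1 ran from -0.027 to 0.11 at 250 µM TCEP, LIPC from -0.14 to 0.018 for the TCEP step and LCAT from -0.034 to 0.22 at 25 µM TCIPP.

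The replicate number was not taken to pair DMSO with treated libraries. Under the replicate block APOC3 passed at 25 µM TCEP and 2.5 µM TCIPP (adjusted p = 0.00455 and 0.00271), as did SCARB1 (0.00137 and 6.51e-05). The block changed no other call of the 10 genes than these and those in the report. The fits with the block and a library left out were chosen after seeing the data. DESeq2 called MTTP for the TCEP step (0.0492) and between the compounds (0.000589), and unique exon reads called SCARB1 at 2.5 µM TCIPP (0.0347). Without TCIPP 25 µM replicate 2, MTTP (0.0458) and LCAT (0.0472) passed between the compounds, each in 1 of 6 fits with a library left out. Without the filter, 11 more calls were made among the 70. Depth limits CETP most. The median 95% interval over all genes reached 0.25 to 0.26 to either side in the 7 comparisons of groups and 0.36 for the difference of steps.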
